A study of Mus musculus with 2 samples.

Results

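The 10 genes described here make inducible defences of the gut lining, and were picked by name for that role: Pigr, Lcn2, Saa1, Saa2, Saa3, Nos2, Duox2, Duoxa2, Nox1 and Ltf. All 10 had 1 row in each of 2 expression tables that list 18944 genes. The tables come from 1 Stat6 KO culture and 1 WT culture of mouse intestinal stem cells, the crypt cells that renew the epithelium. Both carried Lgr5GFP-CreERT2, an allele that puts a green fluorescent protein and a tamoxifen-dependent Cre recombinase under control of the stem cell gene Lgr5, and both came from animals aged 2 months. STAT6 is the transcription factor that carries signals of the cytokines interleukin-4 and interleukin-13, and the comparison asks which transcripts differ without it. The protocol printed under both samples describes a CRISPR/Cas lentivirus with Stat6 guide RNAs and a screen for deficient cells. The sources used here do not give whether the KO is 1 clone or a pool, nor what virus, if any, WT cells were given. With 1 library per genotype no difference below has a replicate check, and none has a p-value.

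Epithelial cells defend the gut by secreting proteins that bind or starve microbes, by moving antibodies into the lumen and by making oxidants. PIGR, the polymeric immunoglobulin receptor, carries immunoglobulin A from the tissue to the lumen. DUOX2 releases hydrogen peroxide at the apical surface and needs its maturation factor DUOXA2 to leave the endoplasmic reticulum, NOX1 makes superoxide, and NOS2 makes nitric oxide. Lipocalin 2 captures bacterial iron carriers, lactoferrin binds iron itself, and the serum amyloid A proteins are acute phase proteins that bind lipids and retinol. Most of these genes are low at rest and are switched on by microbial products, interleukin-17, interleukin-22, tumour necrosis factor or interferon-gamma. In human epithelial cells, interleukin-4 acting through STAT6 raises PIGR, and interleukin-4 and interleukin-13 raise DUOX1 in human airway cells.

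Levels are FPKM, fragment counts scaled to transcript length and library size, so they are levels per length. The log2 ratio below is log2((KO FPKM + 1)/(WT FPKM + 1)), which understates the fold of low genes. A gene counts as measured if either library has it at 1 FPKM or more, which held for 12079 genes and for 6 of the 10 members. A measured gene counts as higher or lower in KO when the log2 ratio reaches 2-fold. Of all measured genes 2.44% were higher and 2.18% lower by this rule. The median log2 ratio of measured genes was -0.18, and values relative to it are given where they matter.

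The cultures held transcripts of mature cells beside those of stem cells. Lgr5 was at 1.88 FPKM in KO and 1.79 FPKM in WT. Of 9 epithelial markers, Epcam and Vil1 were at 531 and 632 FPKM in KO and at 577 and 425 FPKM in WT. The 9 went both ways, with 0 past 2-fold and a list median of -0.22. The lowest log2 ratios were those of the keratin genes Krt18 (-0.89), Krt8 (-0.57) and Krt19 (-0.52). The highest were those of Krt20 (0.65) and Vil1 (0.57). Krt18 thus stood close to Duox2 (-0.88), which is described below. Each of the 10 absorptive enterocyte markers was past 2-fold higher in KO, against 2.44% of all measured genes. The median log2 ratio of the 10 was 2.06, and their summed level was 15878 FPKM in KO and 4253 FPKM in WT. Of the 10, Lct (11.03 FPKM in KO and 0.53 FPKM in WT) reached the minimum level through KO alone and so had to read higher. With 1 FPKM required in both libraries, 9 were past 2-fold higher, against 2.11% of all genes so filtered, and the median was 1.8. Stat6 itself was at 44.2 FPKM in KO and 41.3 FPKM in WT, and a transcript level does not check a CRISPR mutation. In such bulk RNA, fewer cells of a type and less RNA per cell cannot be told apart. Low FPKM values lie on steps worth 1 read each, which put the depth at about 20000000 reads in KO and 19800000 reads in WT, although a multiple of these depths would fit the steps as well. The labels' average of 59000000 reads lies beyond the depths searched, and at such a depth the estimated reads below would be higher and their intervals narrower.

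Upstream sequences of 3 kinds bear on the results: that of Pigr, the 1 member past 2-fold on the log2 ratio, those of 2 genes that lie head to head and had near-equal ratios, and those of 2 close copies of which 1 was listed at 0. Each window runs from 250 bases before to 50 bases after the annotated start of the transcript, 5′ to 3′ on the gene's own strand, from RefSeq on build GRCm38.p6. That build is later than the mm9 named in the submitters' processing notes. Of the 10 members 9 had a window in the table and Nos2 had none. Capitals mark matches to the motifs described after them.
Pigr, chr1:130826434-130826733, plus strand: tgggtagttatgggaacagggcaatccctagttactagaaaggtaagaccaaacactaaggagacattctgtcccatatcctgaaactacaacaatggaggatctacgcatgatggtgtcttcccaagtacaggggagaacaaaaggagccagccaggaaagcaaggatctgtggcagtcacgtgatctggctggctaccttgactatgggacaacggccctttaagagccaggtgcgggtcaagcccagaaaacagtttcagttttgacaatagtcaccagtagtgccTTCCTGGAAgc
Duox2, chr2:122298178-122298477, minus strand: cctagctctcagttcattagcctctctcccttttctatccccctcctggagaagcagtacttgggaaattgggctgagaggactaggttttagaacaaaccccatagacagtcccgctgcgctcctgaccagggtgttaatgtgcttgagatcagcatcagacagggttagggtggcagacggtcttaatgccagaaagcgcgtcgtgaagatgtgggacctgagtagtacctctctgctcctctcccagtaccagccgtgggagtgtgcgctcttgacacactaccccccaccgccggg
Duoxa2, chr2:122298650-122298949, plus strand: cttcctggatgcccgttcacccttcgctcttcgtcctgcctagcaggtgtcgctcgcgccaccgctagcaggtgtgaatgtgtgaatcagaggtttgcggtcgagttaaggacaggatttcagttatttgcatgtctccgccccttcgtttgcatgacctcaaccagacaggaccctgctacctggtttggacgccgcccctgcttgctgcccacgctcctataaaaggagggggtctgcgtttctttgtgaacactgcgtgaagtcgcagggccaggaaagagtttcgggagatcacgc
Saa1, chr7:46742931-46743230, minus strand: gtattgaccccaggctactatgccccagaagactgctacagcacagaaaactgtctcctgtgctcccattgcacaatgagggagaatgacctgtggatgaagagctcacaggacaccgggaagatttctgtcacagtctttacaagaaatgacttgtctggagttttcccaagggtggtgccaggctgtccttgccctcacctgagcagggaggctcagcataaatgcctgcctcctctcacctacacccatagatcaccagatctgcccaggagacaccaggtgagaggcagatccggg
Saa2, chr7:46751583-46751882, plus strand: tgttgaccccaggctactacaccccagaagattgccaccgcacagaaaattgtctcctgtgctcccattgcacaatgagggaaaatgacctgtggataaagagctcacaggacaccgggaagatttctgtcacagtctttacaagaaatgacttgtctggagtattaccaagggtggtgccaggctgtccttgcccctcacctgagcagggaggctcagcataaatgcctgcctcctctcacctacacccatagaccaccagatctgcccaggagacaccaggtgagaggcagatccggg

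A set of 4 motifs was searched on both strands of the 9 windows, and any overlap was allowed. They were the STAT site with a spacer of 4 bases that STAT6 prefers, TTCNNNNGAA, the STAT site with a spacer of 3 bases, TTCNNNGAA, the core of interferon response elements, GAAANNGAAA, and the kappaB consensus bound by NF-kB. The Pigr window held 1 match, TTCCTGGAA, to the 3-base form, which began at base 40, counting the first transcribed base as 1. The Duox2, Duoxa2, Saa1, Saa2 and Ltf windows held none of the motifs. Of the other windows, Lcn2 held the 4-base STAT form, Saa3 the interferon core and Nox1 the kappaB consensus, 1 match each. Among all 32851 windows of this length in the table, 6.95% held the 4-base form, 8.3% the 3-base form, 3.44% the interferon core and 8.46% the kappaB consensus. A match describes letters in this window and is no measure of binding.

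Pigr had the log2 ratio of largest size among the members, although with a pseudocount of 0.1 that of Saa1 was larger in size (-1.71). Pigr (Entrez gene 18703) was at 451.9 FPKM in KO and at 209.3 FPKM in WT. The KO level was 2.16 times the WT level, and the log2 ratio was 1.11, or 1.29 relative to all genes. These values stand for about 34376 reads in KO and 15826 in WT, and the 95% exact binomial interval of the fold, which covers counting error only, ran between 2.12 and 2.2. Pigr was also the most abundant member, above 99.1% of all listed genes in KO and 98.2% in WT. Of the measured genes 1.87% had a higher log2 ratio. The enterocyte markers that moved with it had log2 ratios between 1.29 and 2.98, all above that of Pigr. The highest was that of Lct, which reached the minimum level through KO alone. The part of these markers in the Pigr difference was not tested. Jchain, which encodes the joining chain of the antibodies that PIGR carries and comes from plasma cells, was at 1.13 FPKM in KO and 2.32 FPKM in WT.

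Pigr was the only 1 of the 6 measured members at least 2-fold higher in KO, where 2.44% of all measured genes were, and 0 of the 6 were at least 2-fold lower, where 2.18% of all were. At 1.5-fold, 1 of 6 was higher, against 5.7% of all measured genes, and 3 of 6 were lower, against 11.4%. Those 3 were Saa1, Duoxa2 and Duox2. Saa1 reached the minimum level through the WT library alone, so it had to read lower in KO, and the shares among 6 genes describe these genes only. The median log2 ratio of the 6 was -0.72, against -0.18 for all measured genes. Without Saa1, with 1 FPKM required in both libraries, it was -0.56, and over the members at 5 FPKM or more it was -0.37.

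**Figure D1:**
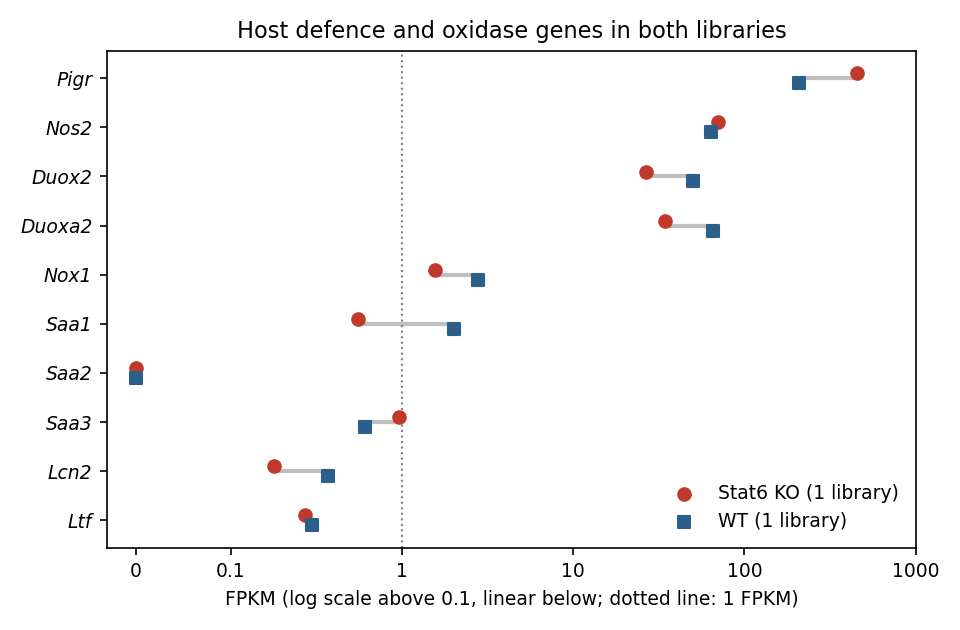
FPKM of the 10 members in the Stat6 KO library (circles) and the WT library (squares), 1 library each, on an axis that is logarithmic above 0.1 and linear below, with a grey line joining both values of a gene. Pigr lies to the right in KO, Duox2, Duoxa2, Nox1 and Saa1 lie to the left in KO, Nos2 nearly overlaps, and Saa2 is at 0 in both.

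Duox2 and Duoxa2, the peroxide-producing oxidase and its maturation factor, differed by almost the same proportion. Duox2 (Entrez gene 214593) was at 26.8 FPKM in KO and at 50.1 FPKM in WT. The KO level was 0.534 of the WT level, with a counting interval between 0.512 and 0.558, and the log2 ratio was -0.88. Duoxa2 (Entrez gene 66811) was at 34.3 FPKM in KO and at 65.3 FPKM in WT. Its KO level was 0.526 of the WT level, with an interval between 0.488 and 0.567, and its log2 ratio was -0.91. Both missed the 2-fold threshold, and 3.34% and 2.98% of measured genes had lower log2 ratios than Duox2 and Duoxa2.

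Within each library the ratio of Duox2 to Duoxa2 FPKM was nearly constant, 0.78 in KO and 0.767 in WT. The genes lie head to head on chromosome 2, and their annotated starts in the windows printed above are 673 bases apart on GRCm38.p6. The paralogous pair next to them was hardly present. Duox1, the other dual oxidase, was listed at 0 in KO and at 0.06 FPKM in WT, and its maturation factor Duoxa1 was at 0.26 FPKM in KO and 0.46 FPKM in WT. The Duoxa2 transcript shared 41.1% of its runs of 50 bases, the read length, with the opposite strand of Duoxa1, and Duox2 shared 6.84% with Duox1. Whether the libraries keep strand is not stated. Reads from such stretches cannot be placed with certainty.

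Nox1, the catalytic subunit of a superoxide-producing oxidase best known from the colon, was low in both cultures, and its partners stood higher. Nox1 (Entrez gene 237038) was at 1.56 FPKM in KO and at 2.78 FPKM in WT. Its log2 ratio was -0.56, and the KO level was 0.561 of the WT level, with a counting interval between 0.423 and 0.75 on about 79 reads in KO and 139 in WT. The transcript shared 13.9% of its 50-base runs with the opposite strand of Cstf2.

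The other parts of the NOX1 complex read the same way, with 1 exception. Noxo1, the organizer subunit, was at 12.6 FPKM in KO and 23.6 FPKM in WT (log2 ratio -0.85). Noxa1, the activator subunit, was at 6.39 FPKM in KO and 10.95 FPKM in WT (-0.69). Cyba, the membrane partner that stabilizes several NADPH oxidases, was at 82.6 FPKM in KO and 136.6 FPKM in WT (-0.72). Rac1, the small GTPase that switches the complex on and has many other roles, was at 184 FPKM in KO and 174.4 FPKM in WT (0.08). The ratio of Nox1 to Noxo1 FPKM was 0.124 in KO and 0.118 in WT.

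Of 14 oxidase partners and paralogues, 13 had a row and 8 were measured. None of the 8 passed 2-fold in either direction, where 2.44% of all measured genes were higher and 2.18% lower. At 1.5-fold, 6 were lower, against 11.4% of all measured genes, and 0 were higher, against 5.7%. Of the 8, 2 reached the minimum level through WT alone and so had to read lower in KO, Rac2 among them. The median log2 ratio of the 8 was -0.62, against -0.18 for all measured genes. Cybb, the phagocyte paralogue of Nox1, was under the minimum, at 0.62 FPKM in KO and 0.55 FPKM in WT, and Nox4 was listed at 0 in both libraries. With the median of all genes set to 0, Duox2, Duoxa2, Nox1, Noxo1, Noxa1 and Cyba remained negative, at -0.70, -0.73, -0.38, -0.67, -0.51 and -0.54, and Rac1 was at 0.26.

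**Figure D2:**
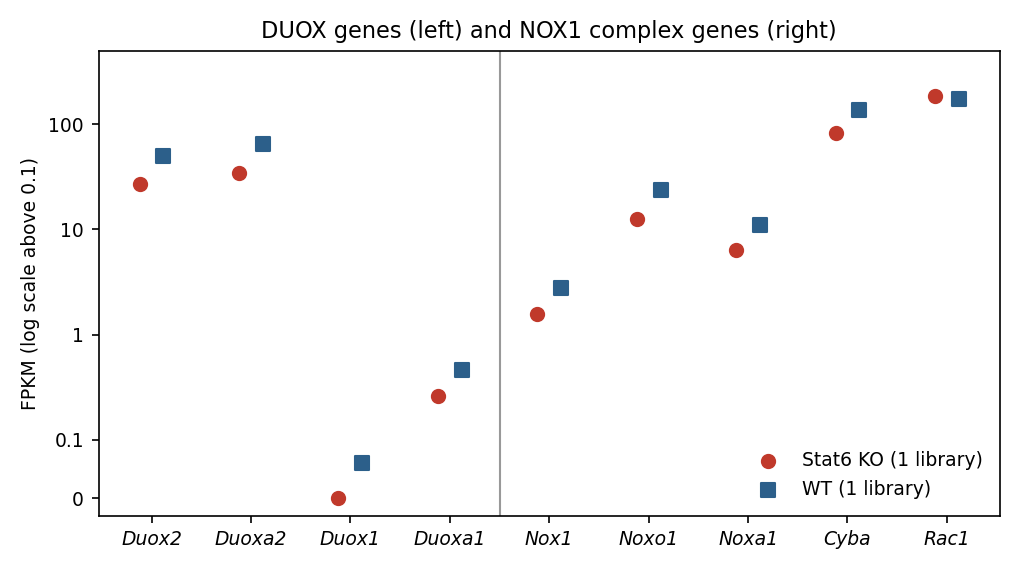
FPKM of the DUOX genes, left of the line, and of the NOX1 complex genes, right of it, in the Stat6 KO library (circles) and the WT library (squares), 1 library each, on an axis that is logarithmic above 0.1. Each gene except Rac1 reads lower in KO, and Duox1 and Duoxa1 lie under 1 FPKM in both.

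Nos2, the inducible nitric oxide synthase, was abundant in both cultures at close levels. Nos2 (Entrez gene 18126) was at 70.5 FPKM in KO and at 63.5 FPKM in WT, a log2 ratio of 0.15. The KO level was 1.11 times the WT level, with a counting interval between 1.07 and 1.15, and 19.1% of measured genes had a higher log2 ratio. Relative to all genes the log2 ratio was 0.33. In KO the order of the 4 most abundant members was Pigr, Nos2, Duoxa2 and Duox2, whereas in WT Duoxa2 stood just above Nos2. The paralogues Nos1 and Nos3, of nerve and endothelium, were at 0.2 and 0.26 FPKM in KO and at 0.1 and 0.42 FPKM in WT.

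Genes that supply or compete with NOS2 were mostly close between libraries. Of 15 listed, 11 were measured, with a median log2 ratio of -0.13. Of these 11, 1 was at least 2-fold higher in KO and 0 lower, against 2.44% and 2.18% of all measured genes. The 1 gene was Arg2, the mitochondrial arginase that uses the same substrate, arginine, at 66.4 FPKM in KO and 24.1 FPKM in WT (1.43). Gchfr, which restrains synthesis of the cofactor tetrahydrobiopterin, was at 20.2 FPKM in KO and 12.1 FPKM in WT (0.69). Gch1, the first enzyme of that synthesis, was at 35.96 FPKM in KO and 41.6 FPKM in WT, and its log2 ratio of -0.21 became 0.02 under TMM scaling (a trimmed mean of the log ratios). At the low end were the arginine carrier Slc7a1 (-0.50) and Asl (-0.41), which makes arginine.

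**Figure D3:**
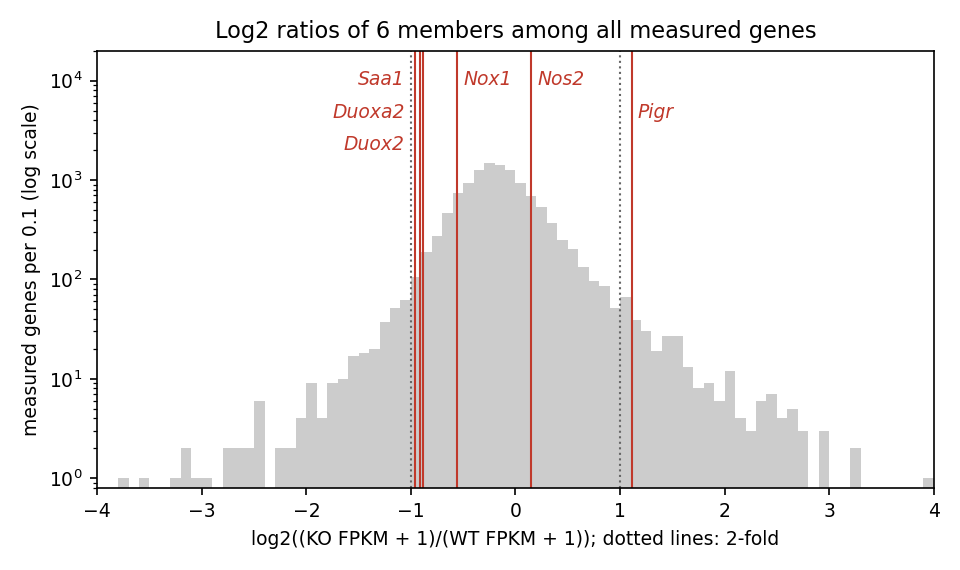
Number of measured genes per 0.1 of the log2 ratio (grey, logarithmic count axis, the 12079 measured genes, with ratios beyond 4 placed in the outermost bars), with the 6 measured members as red lines. Pigr lies past the upper 2-fold line, Saa1, Duoxa2 and Duox2 lie just inside the lower one, and Nos2 lies at 0.15.

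The serum amyloid A genes were near the limit of detection. Saa1 (Entrez gene 20208) was at 0.55 FPKM in KO and at 2.02 FPKM in WT, a log2 ratio of -0.96. The KO level was 0.272 of the WT level, and this rests on about 6 reads in KO and 23 in WT, which gives a counting interval between 0.0864 and 0.655. The pseudocount sets its place: the log2 ratio was -1.71 with a pseudocount of 0.1, past 2-fold, and -0.34 with 5.

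Saa2 (Entrez gene 20209) was listed at 0 in both libraries, although it is the closest copy of Saa1. Their printed windows were identical at 287 of 301 aligned positions, or 95.3%. Their transcripts were less alike at read length, since 13.2% of the 50-base runs of Saa1 occurred in Saa2. Reads from those runs may have been assigned to either gene, and since Saa2 is at 0, summing both genes cannot show such a division. Saa3 (Entrez gene 20210), which in mice is made outside the liver, was at 0.96 FPKM in KO and at 0.61 FPKM in WT, or about 10 and 6 reads, with a counting interval of the fold between 0.546 and 5.55. The related Saa4, a constitutive liver product, was at 0.12 FPKM in KO and 0.32 FPKM in WT.

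The members that bind iron or its carriers were under 1 FPKM in both libraries. Lcn2 (Entrez gene 16819), lipocalin 2, was at 0.18 FPKM in KO and at 0.37 FPKM in WT, which is about 3 and 6 reads, and the counting interval of the fold ran between 0.0804 and 2.33. Ltf (Entrez gene 17002), lactoferrin, was at 0.27 FPKM in KO and at 0.3 FPKM in WT, or about 15 and 16 reads, with an interval between 0.429 and 2.01. A difference between the libraries was not detectable at this depth for Saa3, Lcn2 or Ltf. Both Lcn2 and Ltf are also stored in neutrophil granules. Of 15 neutrophil markers 12 had a row, and their summed level was 6.99 FPKM in KO and 6.52 FPKM in WT, with 1 of the 12 at 0 in KO and 3 at 0 in WT. Of the 12, 3 were measured and 0 passed 2-fold, where 2.44% of all measured genes were higher and 2.18% lower. The 3 were Ly6g (0.30), Itgam (0.27) and Cxcr2 (-0.56). Among those under the minimum, the granule gene Camp was at 0 in KO and 0.18 FPKM in WT, whereas S100a9 was at 0.5 FPKM in KO and 0 in WT.

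Other secreted defence genes went in both directions. Of 22 listed, 21 had a row and 16 were measured, with a median log2 ratio of 0.16. Of these 16, 1 was past 2-fold higher in KO and 3 lower, against 2.44% and 2.18% of all measured genes. The antibacterial lectin gene Reg3a was at 6.35 FPKM in KO and 2.57 FPKM in WT (1.04), and Sprr2a1, a small proline-rich protein induced by microbes, was at 2181 FPKM in KO and 1444 FPKM in WT (0.59). The neutrophil-attracting chemokine gene Cxcl1 was at 2.18 FPKM in KO and 7.64 FPKM in WT (-1.44), and the lectin gene Reg3g at 164.8 FPKM in KO and 358.1 FPKM in WT (-1.12). The third lower gene, named after its value was seen, was the phospholipase gene Pla2g2a (-1.08). With the TMM factor only Cxcl1 of the 3 was still past 2-fold lower, at -1.28, with Reg3g at -0.89 and Pla2g2a at -0.85.

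Few acute phase genes were measured. Of 18 listed, 12 had a row and 3 reached the minimum level. None of the 3 passed 2-fold, where 2.44% of all measured genes were higher and 2.18% lower. The complement gene Cfb was at 20.7 FPKM in KO and 13.3 FPKM in WT (0.61), C3 at 3.64 FPKM in KO and 4.97 FPKM in WT (-0.36), and Il1rn, an inhibitor of interleukin-1, at 76.8 FPKM in KO and 113.6 FPKM in WT (-0.56). Hp and Crp, which encode haptoglobin and C-reactive protein, did not exceed 0.06 FPKM in either library.

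Iron genes showed 0 of 7 measured past 2-fold, where 2.44% of all measured genes were higher and 2.18% lower. Slc40a1, the exporter ferroportin, was highest, at 10.8 FPKM in KO and 5.89 FPKM in WT (0.78), followed by the endocytic receptor Lrp1 (0.50). Ftl1, the ferritin light chain, was lowest (-0.31), then the transferrin receptor Tfrc, whose log2 ratio of -0.01 became 0.22 with the TMM factor. Slc22a17, a receptor for lipocalin 2, was under the minimum at 0.57 FPKM in KO and 0.98 FPKM in WT.

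Genes that remove peroxide and superoxide had 0 of 14 measured past 2-fold and a median of -0.05. Of all measured genes only 2.44% were higher and 2.18% lower, so a count of 0 in 14 does not set this list apart. Gpx2, the glutathione peroxidase of the gut epithelium, was at 861.4 FPKM in KO and 1440 FPKM in WT (-0.74), followed by Prdx6 (-0.35). Gpx4, which protects membrane lipids, was at 290.6 FPKM in KO and 204.2 FPKM in WT (0.51), and Prdx5 had a log2 ratio of 0.45. The lowest of this list thus stood next to the oxidase genes in ratio, whereas most of the list lay above the median of all genes, 10 of 14.

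Receptors, adaptors and transcription factors of pathways that induce the members, with inhibitors of these pathways among them, were mostly close between libraries. All 36 listed had a row and 30 were measured, with a median log2 ratio of -0.03. Of these 30, 0 were past 2-fold higher in KO and 2 lower, against 2.44% and 2.18% of all measured genes. The 2 were Tnfrsf1b, a tumour necrosis factor receptor, at 3.99 FPKM in KO and 10 FPKM in WT (-1.14), and the NF-kB subunit gene Nfkb2, at 15.5 FPKM in KO and 35.1 FPKM in WT (-1.13). With the TMM factor both were inside 2-fold, at -0.95 and -0.91. At 1.5-fold, without that factor, 5 of the 30 were lower, against 11.4% of all measured genes, and 2 were higher, against 5.7%. Il17rc, a receptor chain for interleukin-17, was highest, at 45.4 FPKM in KO and 27.3 FPKM in WT (0.71), then the adaptor gene Ticam1 (0.61). Il22ra1, the epithelial interleukin-22 receptor chain, was at 19.4 FPKM in KO and 19.2 FPKM in WT, and Nfkbiz, a co-activator that Lcn2 needs, at 12.9 FPKM in KO and 11.8 FPKM in WT.

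**Figure D4:**
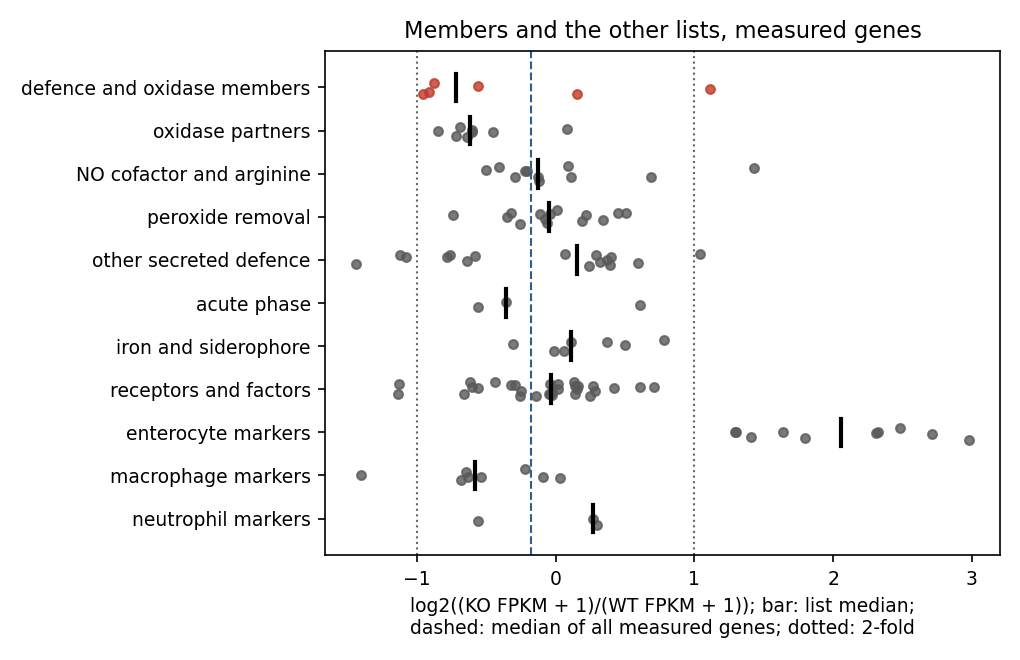
Log2 ratios of measured genes in the defence and oxidase members (red) and in 10 other lists (grey), with a bar at each list's median, a dashed line at the median of all measured genes and dotted lines at 2-fold. Most oxidase partners lie left of the dashed line, and the enterocyte markers lie right of the upper 2-fold line.

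Markers of white blood cells were mostly low in both libraries and mostly within 2-fold. Of 11 macrophage markers 8 were measured, and 3 of these reached the minimum level through WT alone and so had to read lower in KO. Of the 8, 1 was at least 2-fold lower in KO and 0 higher, against 2.18% and 2.44% of all measured genes. Their median log2 ratio was -0.58, against -0.18 for all measured genes, and -0.54 with 1 FPKM required in both libraries. The summed level of the 11 was 33.7 FPKM in KO and 52.2 FPKM in WT. Cd68, the 1 past 2-fold, was at 6.08 FPKM in KO and 17.7 FPKM in WT, and Mrc1 was at 16.6 FPKM in KO and 16.2 FPKM in WT. Marco was at 0 in both libraries, and Ptprc, the marker of all white blood cells, was at 0.57 FPKM in KO and 1.43 FPKM in WT. The 10 lymphocyte markers, Ptprc again among them, summed to 4.21 FPKM in KO and 8.15 FPKM in WT, with 7 of them under the minimum. Of the other 3, 2 reached the minimum level through WT alone and so had to read lower in KO. None of the 3 was past 2-fold, where 2.44% of all measured genes were higher and 2.18% lower. Cyba and Rac2, which was at 0.89 FPKM in KO and 1.94 FPKM in WT, are also made by phagocytes, and the part of such cells in their values was not tested. Of 10 stem cell markers, with a median of -0.39, 2 were at least 2-fold lower in KO, against 2.18% of all measured genes. The 2 were the crypt factor Sox9 (-1.14) and the cell cycle kinase Cdk6 (-1.0). With the TMM factor, the median of all genes set to 0 or a pseudocount of 5 this count was 0, and with a total without the most abundant genes it was 1. Their part in the oxidase values was not tested. Sums of the 7 Paneth cell markers were 2010 FPKM in KO and 1956 FPKM in WT, although Pla2g2a among them was past 2-fold lower (-1.08). For the 7 goblet cell markers the sums were 2181 FPKM in KO and 1764 FPKM in WT. Tff3 alone gave 1463 and 1094 FPKM of these. Single goblet cell markers went both ways, with Clca1 at 1.52, Agr2 at -1.04 and the other 5 within 2-fold. Under TMM scaling Clca1 was at 1.75, whereas Agr2 (-0.81) and Pla2g2a (-0.85) fell inside 2-fold. Sums of the 6 tuft cell markers with a row were 11.3 FPKM in KO and 13.6 FPKM in WT. The colonocyte markers Car4 and Slc26a3, of which the small intestine also expresses the second, were at 45.8 and 38.9 FPKM in KO and at 10.3 and 17.7 FPKM in WT, and Hoxb13 was at 0 in both.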

How the data were processed

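The authors deposited gene-level FPKM, named in the file headers, with 2 decimals. RSEM, Bowtie2, HISAT and build mm9 are listed in the submitters' processing notes. Their roles and versions, the annotation, strandedness and filters are not stated there. Per the labels' protocols, total RNA was sequenced as single reads of 50 bases, at 59000000 per sample on average. FPKM totals were 496255 in KO and 504214 in WT.

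Tables were joined on Entrez gene number, and log2 ratios were computed with a pseudocount of 1 FPKM. With 1 library per genotype no count test was run. Depths between 5000000 and 30000000 reads were searched together with an offset taken off RefSeq gene lengths. The pair kept was the one that brought the largest share of low FPKM values of short RNA genes near whole reads. The offset so fitted was 36 bases in each library. In KO 87.9% and in WT 85.8% of those values lay within 0.1 read of a whole number, shares that the search itself raised. Estimated reads use the longest RefSeq-linked coding transcript of GENCODE M21, and intervals are exact binomial at 95%. Shared runs were counted over all transcripts of that annotation. Windows were aligned with Biopython 1.88, and other work used Python 3.11.15 with pandas 2.3.3, NumPy 2.4.6 and SciPy 1.17.1. The 2-fold call, for genes at 5 FPKM or more, and the TMM factor were tested on simulated data. The depth, estimated reads, intervals, shared runs and genes at lower levels were not.

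The members and lists were chosen with earlier results of these data known. All members are named, and of each other list the 2 highest, the 2 lowest and direct partners of members, up to 6 measured genes. A gene that this rule selects is not reported here. Other genes named are marker-list checks and genes under the minimum level. Alternatives were pseudocounts of 0.1 and 5, 3 scalings, 3 minimum levels, thresholds of 1.5-fold and 4-fold, and Saa1 and Saa2 summed.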

Additional observations from a re-analysis of the deposited data

How the results depend on the processing

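With 1 library per genotype, no replicate could be left out. No paired analysis was possible because each genotype has 1 library. Pigr stayed past the threshold under each alternative except the 4-fold threshold, where 0 members were higher, against 0.422% of all measured genes. Its log2 ratio ran between 1.09 and 1.34. The count of members at least 2-fold lower was 0, against 2.18% of all measured genes. It was 1 (Saa1) with a pseudocount of 0.1, against 5.0% of all, and 3 with the 1.5-fold threshold, against 11.4%. The median log2 ratio of measured members was -0.72, and -0.12 with no minimum level, which adds the 4 members under 1 FPKM. Duox2 ran between -0.90 and -0.66, Duoxa2 between -0.93 and -0.68, Nox1 between -0.79 and -0.25, Saa1 between -1.71 and -0.34 and Nos2 between 0.14 and 0.38, and none of these changed sign. Of 30 member values under the 5 pseudocounts and scalings, 2 moved by 1.5-fold or more, both of Saa1. Minimum levels and the sum of Saa1 and Saa2, at 0 for Saa2, cannot change these values.

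Scaling moved the whole distribution. The TMM factor shifted log2 ratios by up to 0.23 and the median of measured genes to 0.02, and changed the split of genes past 2-fold to 71.9% higher and 28.1% lower (437 and 171), against 52.9% and 47.1% (295 and 263) as deposited. Setting the median to 0 gave the same split (409 and 160). With a pseudocount of 0.1 it was 38.2% and 61.8% (374 and 604), with 5 it was 69.6% and 30.4% (144 and 63). Of the members under 1 FPKM, Ltf changed sign with the scaling. Depth limits Saa1, Saa3, Lcn2 and Ltf, each at 23 reads or fewer per library at the depths estimated, and at more if the true depth is a multiple of those.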
